A study of Mus musculus with 4 samples.

Results

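Solute carriers are membrane proteins that move nutrients, ions, vitamins and metabolites across the plasma membrane and the membranes of organelles, and their genes carry symbols that begin with Slc and a family number. Measured here were 259 such genes, of 12393 genes in all, in sorted splenic CD8 T cells of mice given the dioxin TCDD or its solvent. A gene was taken when its symbol in the platform annotation begins with Slc and a digit, the glucose transporters Slc2a1 and Slc2a3 and the lactate transporter Slc16a1 being left out by the rule. Only probe sets assigned to a single gene were used, and a gene with several is given by the one whose values averaged highest across the 4 arrays. The 259 genes had 411 such probe sets and belonged to 49 families. They were sorted into 10 groups by family number alone, each group named for what its families mainly carry. A single gene may therefore carry something else than its group's name says, or be no carrier. The choice of genes used level and not treatment, so the differences between the treatments were free to vary.

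Both groups were female C57BL/6 mice aged 8 to 12 weeks. One group had received 10 µg/kg of TCDD (2,3,7,8-tetrachlorodibenzo-p-dioxin, a persistent ligand of the aryl hydrocarbon receptor, AHR) by intraperitoneal injection, and the other the solvent DMSO, 24 h before the spleens were taken. CD8 T cells were purified by flow sorting from cell suspensions pooled over 4 mice of a group, and their amplified RNA was hybridised to Affymetrix arrays, 2 per group, numbered 1 and 2 in the labels. Whether 1 pool or separate pools gave the arrays of a group is not in the labels, so a p-value here reflects how far these arrays differ, and that spread may be technical.

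Most of what a T cell builds with has to pass through these proteins. The heterodimer of Slc3a2 (CD98 heavy chain) with Slc7a5 imports leucine and other large neutral amino acids, Slc1a5 and the Slc38 family bring in glutamine and other neutral amino acids, and this import feeds protein synthesis and mTORC1 signalling in activated T cells. In the mitochondrion the Slc25 family exchanges ADP, ATP, phosphate, carnitine esters and iron across the inner membrane. AHR is a ligand-activated transcription factor that binds DNA at elements with the core GCGTG, while ATF4 is the transcription factor of the amino acid response and raises several amino acid transporters, Slc7a11, Slc3a2 and Slc38a2 among them.

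For that reason the sequence before the start of each gene was searched for an AHR element (TNGCGTG) and an ATF4 element (TGATGNAA) on both strands. These are 250 bases in RefSeq's annotation of the mouse build GRCm38.p6. Shown are the windows of Slc38a2 and Slc3a2, which both varied with the array number, and of Slc7a11, the named gene with the ATF4 element. Also shown is that of Slc41a3, a named gene with the AHR element whose TCDD and DMSO arrays did not overlap on its brightest probe set. Each reads 5′ to 3′ on the gene's own strand and matches are in capitals. The windows are chr15:96699729-96699978 on the minus strand for Slc38a2, chr19:8713898-8714147 on the minus strand for Slc3a2, chr3:50443614-50443863 on the minus strand for Slc7a11 and chr6:90618996-90619245 on the plus strand for Slc41a3.
Slc38a2: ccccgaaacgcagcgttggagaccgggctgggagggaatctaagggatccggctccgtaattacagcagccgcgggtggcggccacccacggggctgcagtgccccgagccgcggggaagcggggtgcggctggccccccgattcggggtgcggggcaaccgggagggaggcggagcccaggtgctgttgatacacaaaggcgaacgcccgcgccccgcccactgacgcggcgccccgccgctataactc
Slc3a2: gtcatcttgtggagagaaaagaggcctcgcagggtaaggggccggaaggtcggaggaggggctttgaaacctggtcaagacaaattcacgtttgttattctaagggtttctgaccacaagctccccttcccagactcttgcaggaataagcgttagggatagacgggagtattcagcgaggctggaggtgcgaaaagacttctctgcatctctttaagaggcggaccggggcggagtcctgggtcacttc
Slc7a11: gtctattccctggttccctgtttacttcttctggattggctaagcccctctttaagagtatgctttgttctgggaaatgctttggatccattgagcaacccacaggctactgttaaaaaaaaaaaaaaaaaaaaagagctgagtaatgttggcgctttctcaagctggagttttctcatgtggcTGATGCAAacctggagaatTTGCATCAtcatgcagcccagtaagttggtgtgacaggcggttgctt
Slc41a3: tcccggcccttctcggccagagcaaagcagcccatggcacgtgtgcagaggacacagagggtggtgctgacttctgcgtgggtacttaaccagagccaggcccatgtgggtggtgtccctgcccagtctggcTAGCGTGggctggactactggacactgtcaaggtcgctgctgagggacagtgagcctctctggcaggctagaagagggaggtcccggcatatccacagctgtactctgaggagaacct

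Neither motif lies in the windows of Slc38a2 and Slc3a2, which says only that these letters are not there. Slc7a11 holds 2 ATF4 elements on opposite strands, whose first bases lie at −66 and −47 from the start, and Slc41a3 holds 1 AHR element at −118. Of the 259 genes, 204 matched a RefSeq start. The AHR element was found in 15 of them (7.35%), against 4.76% of the 27025 genes with such a window, and the ATF4 element in 5 (2.45%), against 3.91%. A match is a description of the letters and not a site.

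No solute carrier gene passed the test between TCDD and DMSO. None of the 259 had an adjusted p under 0.05 (limma, Benjamini-Hochberg adjusted across the whole table), as was the case for 0 of all 22626 probe sets (0.0%), of which 439 had an unadjusted p under 0.05. The lowest adjusted p of any probe set was 0.9973. At an unadjusted p under 0.05 stood 1 gene higher with TCDD, against 0.823% of all genes, and 2 genes lower, against 1.28%. The median difference, TCDD minus DMSO on the log2 scale, was 0 over the carriers and 0.01 over all genes. Its median size was 0.075 and 0.09. Differences ran from −0.76 to 0.585, and 4 of the 259 (1.54%) exceeded 0.5 in size, against 2.19% of all genes. The 95% limits of the fit lay within a 2-fold change in either direction for 251 of the 259 and within a 1.5-fold change for 220. With 2 arrays against 2, a permutation test cannot give a two-sided p below 0.3333.

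A simpler description asks for which genes both TCDD arrays read above, or below, both DMSO arrays. Both lay above for 30 carriers (11.6%), against 12.9% of all genes, and below for 35 (13.5%), against 12.0%, while 194 overlapped. These shares are near the background and are no result about the carriers. Of the 259, 137 (52.9%) had a mean above 6.01, the median level of all probe sets, against 59.6% of all genes, and the rest are called faint. A faint value does not separate weak expression from none, and values of different probe sets are not compared as levels.

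**Figure D1:**
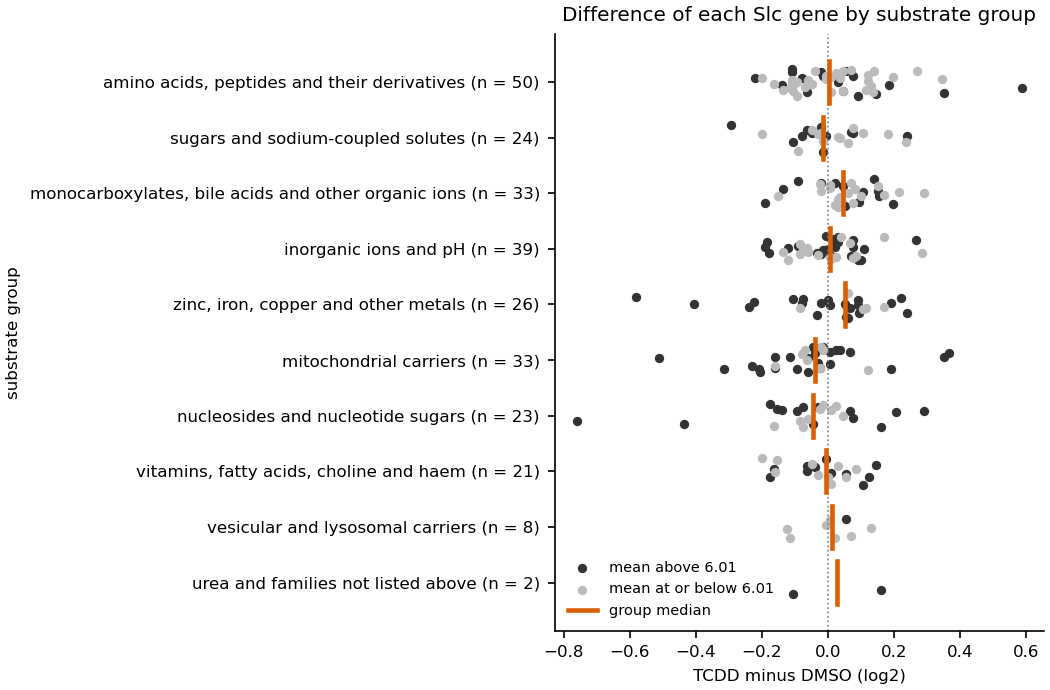
TCDD minus DMSO (log2) of each of the 259 Slc genes, 1 point per gene, by substrate group, with the group median as a bar. Dark points have a mean above 6.01 and grey points a mean at or below it. The group medians lie between −0.045 and 0.0525, and the points farthest from 0 are those of Slc35a5 at −0.76 and Slc66a2 at 0.585.

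Among the 33 mitochondrial carriers, 1 gene (3.03%, against 12.9% of all genes) was higher and 6 (18.2%, against 12.0%) were lower on both TCDD arrays, with a median of −0.04. Such counts by substrate group are descriptions with no test. The carrier of carnitine esters, Slc25a20, which lets long-chain fatty acids enter the mitochondrion for oxidation, read 9.40 and 9.21 on TCDD arrays 1 and 2 and 8.97 and 8.94 on DMSO arrays 1 and 2. The arrays did not overlap. The difference was 0.35 (SE 0.12, 95% limits 0.04 to 0.66), with an unadjusted limma p of 0.0327, the lowest among the carriers, and an adjusted p of 0.9973. A second probe set of Slc25a20 read 6.75 and 6.66 against 6.35 and 6.43, a difference of 0.32 in the same direction and again without overlap. On the first probe set TCDD stayed the higher with any 1 array left out, over differences from 0.26 to 0.45.

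The mitochondrial phosphate carrier Slc25a3, which supplies phosphate for ATP synthesis, read 10.69 and 10.61 with TCDD and 10.92 and 11.40 with DMSO. The difference was −0.51 (95% limits −0.998 to −0.022, unadjusted limma p 0.0435, adjusted p 0.9973), and it ranged from −0.75 to −0.27 with 1 array left out. DMSO array 2 was the highest. The ADP/ATP exchanger Slc25a4, which brings ATP out of the mitochondrion, read 9.83 and 9.62 with TCDD and 9.78 and 9.99 with DMSO on its brightest probe set, so that the arrays overlapped. On the other 3 probe sets of the gene the TCDD arrays were below the DMSO arrays, by −0.74, −0.68 and −0.16, the last of them faint.
The second ADP/ATP exchanger, Slc25a5, read 10.63 and 10.52 with TCDD and 10.63 and 10.64 with DMSO. Its 7 other probe sets differed by −0.23 to 0.22 and did not share a direction.

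The NAD+ carrier Slc25a51 read 8.55 and 8.27 with TCDD and 8.58 and 8.87 with DMSO, a difference of −0.32. On its 2 other probe sets the arrays overlapped. The oxoglutarate carrier Slc25a11, part of the malate-aspartate shuttle, stood at −0.23 and Slc25a39, which carries glutathione, at −0.12, both without overlap. On the other probe sets of Slc25a39, at −0.055 and −0.14, the arrays overlapped. Of the mitoferrins, which import iron for haem and iron-sulphur clusters, Slc25a28 read 8.41 and 8.19 with TCDD and 8.24 and 7.63 with DMSO, and Slc25a37 differed by −0.21 with overlap. Slc25a36, a carrier of pyrimidine nucleotides, was higher with TCDD by 0.70 between the arrays numbered 1 and lower by −0.63 between those numbered 2.

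**Figure D2:**
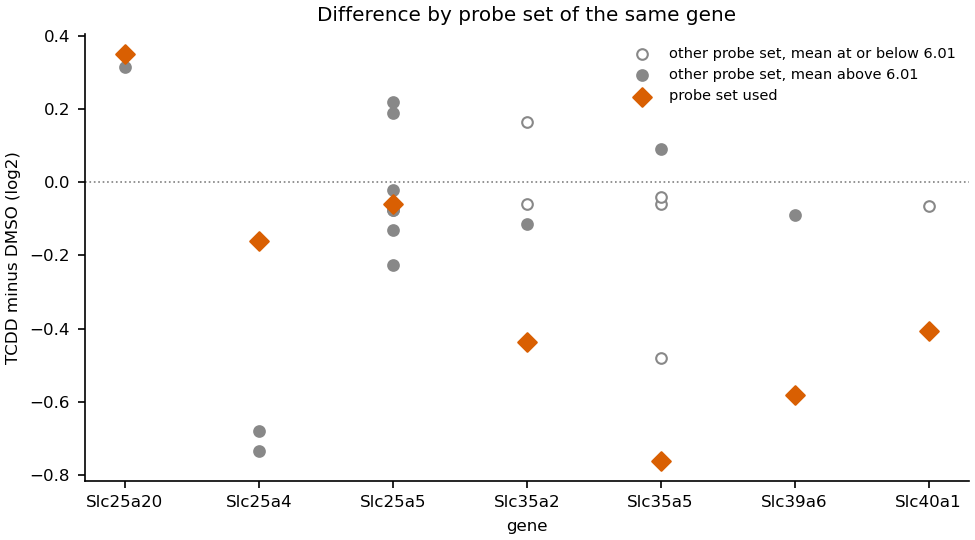
TCDD minus DMSO (log2) for every probe set of 7 Slc genes; the diamond is the probe set used and circles are the others, open where the mean is at or below 6.01. Both probe sets of Slc25a20 lie above 0 and all 4 of Slc25a4 below 0, while those of Slc25a5 and Slc35a5 fall on both sides.

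Of the 50 carriers of amino acids, peptides and their derivatives, 8 (16.0%, against 12.9% of all genes) were higher on both TCDD arrays. As many, 8 (16.0%, against 12.0%), were lower, the median was 0.0025, and 17 of the 50 had a mean above 6.01. Apart from Slc38a2 and Slc3a2, the named transporters that supply activated T cells differed by −0.11 to 0.09, and with so few arrays this does not show that they were alike. For Slc7a5, the light chain that imports leucine, the arrays read 8.27 and 7.97 with TCDD and 8.19 and 8.08 with DMSO, a difference of −0.02 (95% limits −0.39 to 0.36). The glutamine importer Slc1a5 read 7.38 and 7.46 with TCDD and 7.53 on both DMSO arrays, a difference of −0.11 without overlap. Slc38a1, a further neutral amino acid importer, differed by −0.11, the arginine importer Slc7a1, whose probe set was faint, by 0.04, the taurine importer Slc6a6 by 0.05 and Slc7a6, which exchanges cationic for neutral amino acids, by 0.09, all with overlap. The faint probe set of the cystine importer Slc7a11, whose window holds the ATF4 elements shown above, read 4.49 and 4.48 against 4.38 and 4.57.

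Farthest from 0 in this group was Slc66a2, placed here by its family number and not by a known substrate of its own. Slc66a2 read 7.29 and 6.69 with TCDD and 6.48 and 6.33 with DMSO. The arrays did not overlap, and the difference was 0.59 (95% limits −0.0005 to 1.17, unadjusted limma p 0.0501, adjusted p 0.9973). Both other probe sets of Slc66a2 were faint and differed by 0.16 and 0. Slc7a4 was lower with TCDD, at 7.33 and 7.58 against 7.61 and 7.74, although its other probe sets differed by −0.01 and 0.09.

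**Figure D3:**
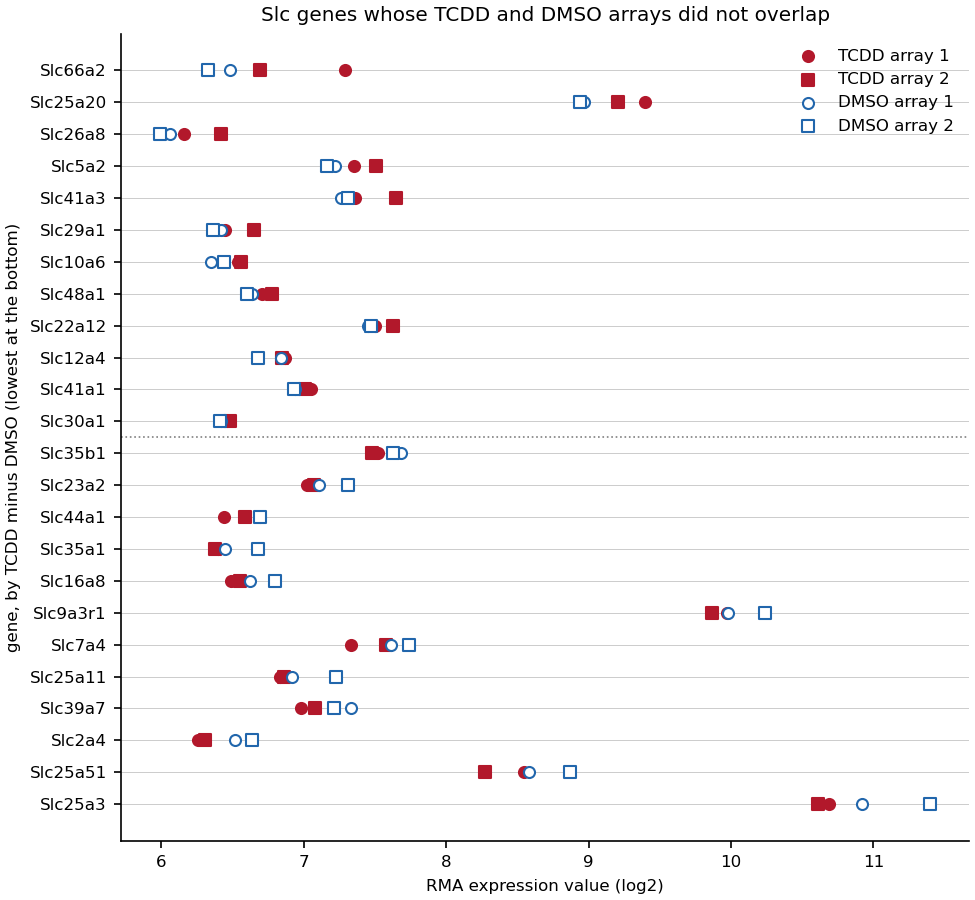
RMA expression values (log2) on the 4 arrays for the 24 Slc genes with a mean above 6.01 named for TCDD and DMSO arrays that did not overlap; red symbols are TCDD, open blue symbols DMSO, circles arrays 1 and squares arrays 2. The 12 genes above the dotted line were higher with TCDD, by 0.06 to 0.59, and the 12 below it lower, by −0.51 to −0.16.

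The sodium-coupled amino acid transporter Slc38a2 (SNAT2) and the CD98 heavy chain Slc3a2 varied with the array number more than any other amino acid transporter named. Slc38a2 read 11.12 on TCDD array 1 and 10.83 on DMSO array 1, but 9.68 on TCDD array 2 and 9.27 on DMSO array 2. Both arrays numbered 1 thus lay above both numbered 2, by 1.5 on average, whereas TCDD and DMSO differed by 0.35 (95% limits −1.47 to 2.17) and overlapped. Slc3a2 read 9.47 and 9.33 on the arrays numbered 1 and 8.36 and 8.13 on those numbered 2, TCDD given first, so that arrays 2 were lower by −1.16. On both pairs of arrays with the same number the TCDD array was the higher, by 0.29 and 0.41 for Slc38a2 and by 0.14 and 0.23 for Slc3a2. The labels do not say what the numbers mark.

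The other amino acid transporters did not share that order to the same extent. Slc7a5, the partner of Slc3a2, was lower on both arrays 2, by −0.21 on average, and Slc38a1 was higher on both, by 0.21. Of the 50 carriers in the group, 7 were higher and 9 lower on both arrays 2. Over all 259 carriers 54 (20.8%) were higher, against 22.4% of all genes, and 24 (9.27%) were lower, against 14.0%.

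Of 15 genes measured out of 20 listed for the amino acid response, 5 were lower and 1 was higher on both arrays 2, against 14.0% and 22.4% of all genes. Those named here for this order were picked after their values were seen. ATF4's own transcript, Atf4, read 10.84 and 10.95 on TCDD and DMSO array 1 and 9.87 and 9.56 on array 2. Ddit3, the stress-induced transcription factor CHOP, read 9.03 and 8.88 and then 7.82 and 7.18. For Atf3, a further stress-induced factor, the readings were 8.12 and 8.39 on arrays 1 and 6.05 and 5.91 on arrays 2, a difference of −2.28. Cebpb was lower on arrays 2 by −1.07 and Ddit4, an inhibitor of mTORC1, higher by 1.5, but asparagine synthetase, Asns, a standard target of ATF4, stood at 0 with a faint probe set. Chac1 and Trib3, other genes of the list, stood at −0.04 and 0.08. Between TCDD and DMSO 0 of the 15 passed the test. Without overlap, 1 was higher (6.67%, against 12.9% of all genes) and 2 lower (13.3%, against 12.0%). Psat1 and Shmt2, enzymes of serine and glycine metabolism, differed by 0.44 and −0.51.

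Some markers of other cell types also differed between the array numbers. Of 9 dendritic cell markers 4 were lower and 0 higher on both arrays 2, against 14.0% and 22.4% of all genes, and their mean was 7.21 and 7.15 on TCDD and DMSO array 1 and 6.78 and 6.41 on array 2. Irf8, a factor of dendritic and B cells, read 8.31 and 8.02 on arrays 1 and 7.02 and 5.76 on arrays 2, while Zbtb46 and Itgax stood at −0.01 and −0.05. Of 14 B cell markers 4 were lower and 6 higher, the lower ones being the antigen presentation genes H2-Aa at −1.16, H2-Ab1 at −1.42, H2-Eb1 at −1.24 and Cd74 at −1.49. The plasma cell list of 6 genes gave 2 higher (33.3%) and 1 lower (16.7%) on both arrays 2. For the 14 monocyte and macrophage markers the counts were 5 higher (35.7%) and 1 lower (7.14%). The lower ones were Irf4 at −1.54 and Mpeg1 at −1.50, while Jchain at 1.75 and Csf1r at 1.05 were among the higher ones. Neutrophil markers were higher on both arrays 2 for 8 of 11 and lower for 0. The part of such cells in the order of Slc38a2 and Slc3a2 was not tested. In sorted bulk samples fewer cells of a type and less RNA per cell cannot be told apart.

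**Figure D4:**
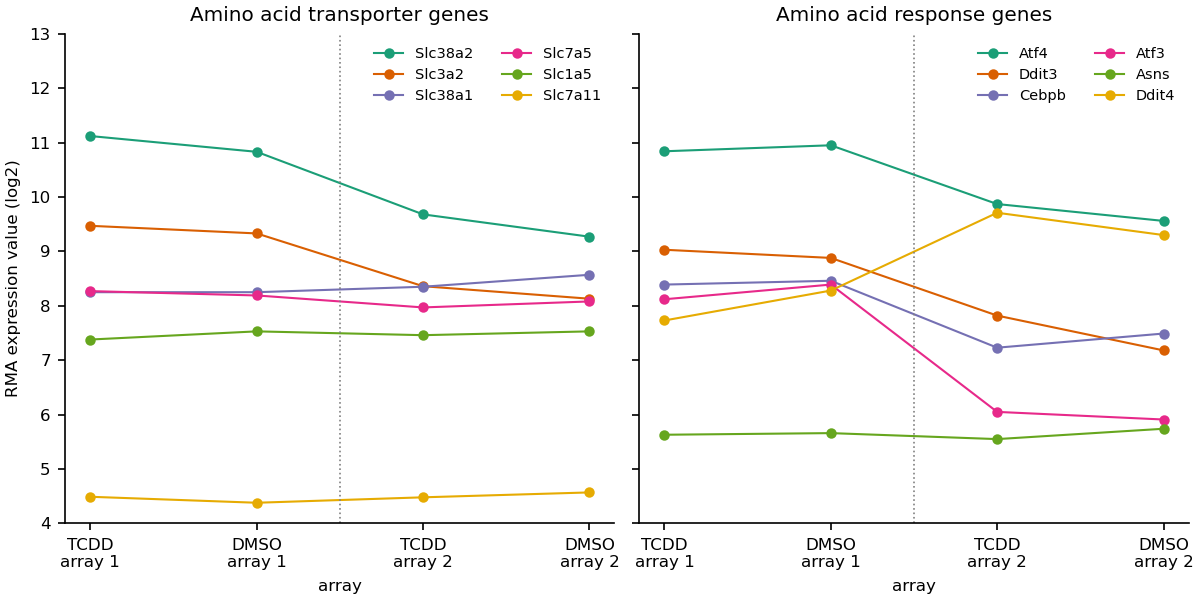
RMA expression values (log2) by array for 6 amino acid transporter genes (left) and 6 genes of the amino acid response (right), ordered by array number with the dotted line between numbers 1 and 2. Slc38a2, Slc3a2, Slc7a5, Atf4, Ddit3, Cebpb and Atf3 are higher on both arrays numbered 1, Slc7a5 by less than the others. Slc38a1 and Ddit4 are higher on both numbered 2, and Slc7a11 and Asns move little.

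The sensing of amino acids by mTORC1 was covered by 21 of 29 listed genes. None passed the test, and the median was 0.01. Without overlap, 2 were higher (9.52%, against 12.9% of all genes) and 2 lower (9.52%, against 12.0%). The largest differences were those of Lamtor2, a subunit of the lysosomal Ragulator complex, at −0.52 and of Flcn, which acts on the Rag GTPases, at 0.44, both with overlap.

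Carriers of sugars and sodium-coupled solutes gave 2 genes higher (8.33%, against 12.9% of all genes) and 3 lower (12.5%, against 12.0%) of 24. Slc2a4, the insulin-regulated glucose transporter GLUT4, read 6.26 and 6.31 with TCDD and 6.52 and 6.64 with DMSO. Its difference was −0.30 (95% limits −0.58 to −0.01, unadjusted limma p 0.0434, adjusted p 0.9973), and a second, faint probe set overlapped at −0.10. Slc5a2, the sodium-coupled glucose transporter SGLT2 of the kidney, read 7.35 and 7.51 against 7.22 and 7.16, a difference of 0.24, although on its other probe set the arrays overlapped. Slc2a8 differed by −0.11 without overlap.

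Of 33 carriers of monocarboxylates, bile acids and other organic ions, 6 were higher (18.2%, against 12.9% of all genes) and 2 lower (6.06%, against 12.0%), with a median of 0.045, and 13 of the 33 had a mean above 6.01. Slc16a3, the lactate exporter MCT4 of glycolytic cells, had a faint probe set and differed by −0.03. Slc16a8, a further lactate transporter, read 6.49 and 6.55 with TCDD and 6.62 and 6.80 with DMSO, a difference of −0.19. Slc10a6, a steroid sulphate importer, was higher by 0.16 and the urate exchanger Slc22a12 by 0.11, both without overlap. On a second probe set of Slc22a12 the arrays overlapped, at 0.04. Slc10a3 differed by 0.20 with overlap. The organic anion transporters of the Slco family, which are not among the 259, had 10 of 13 genes measured and 0 past the test. Without overlap, 3 were higher (30.0%, against 12.9% of all genes) and 1 lower (10.0%, against 12.0%), with a median of 0.11. Slco3a1 was at 0.19 and Slco1a5 at −0.19.

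Among 39 carriers of inorganic ions, 4 were higher (10.3%, against 12.9% of all genes) and 5 lower (12.8%, against 12.0%). The phosphate importer Slc20a1 read 9.51 and 8.44 with TCDD and 9.25 and 9.07 with DMSO, with TCDD array 2 the lowest. Both of its arrays 2 lay below both arrays 1, by −0.625 on average. On a second, faint probe set of Slc20a1 arrays 2 were higher by 0.30 on average, and the treatments differed by −0.30 with overlap. Slc20a2, a relative of Slc20a1, read between 7.50 and 7.58 on all 4 arrays. Of the cation-chloride cotransporters that set cell volume, Slc12a4 differed by 0.10 without overlap, Slc12a7 by 0.03 and Slc12a2 by −0.18, the last with TCDD higher on arrays 1 by 0.25 and lower on arrays 2 by −0.61. The anion exchanger Slc4a2 stood at −0.04. Slc26a8, an anion transporter known from the testis, was higher by 0.27 without overlap.
Slc9a3r1 is named after a sodium-proton exchanger but encodes the scaffold protein NHERF1, and it read 9.97 and 9.87 against 9.98 and 10.24. Without it and 2 other genes that encode partners of carriers, a choice made after seeing the data, 30 carriers were higher and 34 lower without overlap. Of all genes, 12.9% were higher and 12.0% lower. The ATPases that build the sodium and calcium gradients were covered by 7 of 13 listed genes, with 0 past the test and a median of −0.02. Atp1b3, a subunit of the sodium pump, read 10.17 and 10.12 with TCDD and 10.40 and 10.98 with DMSO.

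For zinc, iron, copper and other metals, 4 of 26 carriers were higher (15.4%, against 12.9% of all genes) and 1 was lower (3.85%, against 12.0%), with a median of 0.0525, and 21 of the 26 had a mean above 6.01. Slc39a7, which releases zinc from the endoplasmic reticulum, read 6.98 and 7.08 with TCDD and 7.33 and 7.21 with DMSO, a difference of −0.24. The magnesium transporter Slc41a3 read 7.36 and 7.65 against 7.26 and 7.31 and is the gene with the AHR element shown above. On its other probe sets, both faint, the arrays overlapped, at 0.085 and 0.01. Slc41a1, a relative of Slc41a3, differed by 0.10 and the zinc exporter Slc30a1 by 0.06, both without overlap.
Over the 15 carriers with an AHR element in the window, 3 were higher and 1 lower, with a median of −0.02. Over the 189 without one, 20 were higher and 27 lower, with a median of 0.005. Of all genes 12.9% were higher and 12.0% lower without overlap. With 15 genes these counts are a description and no result about the element. Slc29a1 and Slc7a6 are the other named genes with that element.

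The treatment difference of some metal carriers depended on single arrays. The zinc importer Slc39a6 read 7.53 and 6.54 with TCDD and 7.31 and 7.92 with DMSO, so that TCDD was higher between arrays 1 and lower by −1.38 between arrays 2. The second probe set of that gene differed by −0.09. Slc30a5, which loads zinc into the secretory pathway, was likewise higher by 0.28 between arrays 1 and lower by −0.73 between arrays 2. Slc40a1, the iron exporter ferroportin that is prominent in macrophages, read 6.08 and 6.61 with TCDD and 5.96 and 7.54 with DMSO. The difference was −0.41 (95% limits −1.84 to 1.03), and without DMSO array 2 it turned to 0.39. On both arrays 2 Slc40a1 read above both arrays 1, by 1.055 on average. A second, faint probe set of Slc40a1 differed by only 0.055 between the numbers and by −0.065 between the treatments, with overlap. Of the iron and manganese importers, Slc11a2 was at −0.08 and Slc11a1, which is prominent in phagocytes, at 0.19, both with overlap, and Slc39a8 was faint. Another probe set of Slc11a2 was lower with TCDD by −0.235 without overlap, and a faint one overlapped at −0.025.

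DMSO array 2 also stood apart in some markers of other cells. The neutrophil genes S100a8 and S100a9 read 8.67 and 7.80 on it, against at most 5.94 and 5.63 on the other arrays, and the mean of 11 neutrophil markers was 6.61, against 5.78 to 6.07. Monocyte and macrophage markers, 14 genes, averaged 6.53 on it and 6.36 to 6.56 on the others, with Ctss and C1qc highest there at 11.07 and 5.87 and Vcam1 lowest there at 6.40. The mean of 6 plasma cell markers was 6.38 on it and 6.06 to 6.22 on the others. Of these, Jchain read 8.04 on it and at most 6.60 on the others, while Prdm1 was lowest there at 5.22. The part of such cells in the Slc40a1 reading was not tested.
Other genes of metal handling gave 5 higher (33.3%, against 12.9% of all genes) and 0 lower (against 12.0%) without overlap, of 15 measured out of 18 listed, and 0 passed the test. Aco1, an iron-regulatory protein, read 7.45 and 7.26 with TCDD and 7.01 and 6.74 with DMSO, and the ferritin heavy chain Fth1 differed by −0.25 with overlap.

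**Figure D5:**
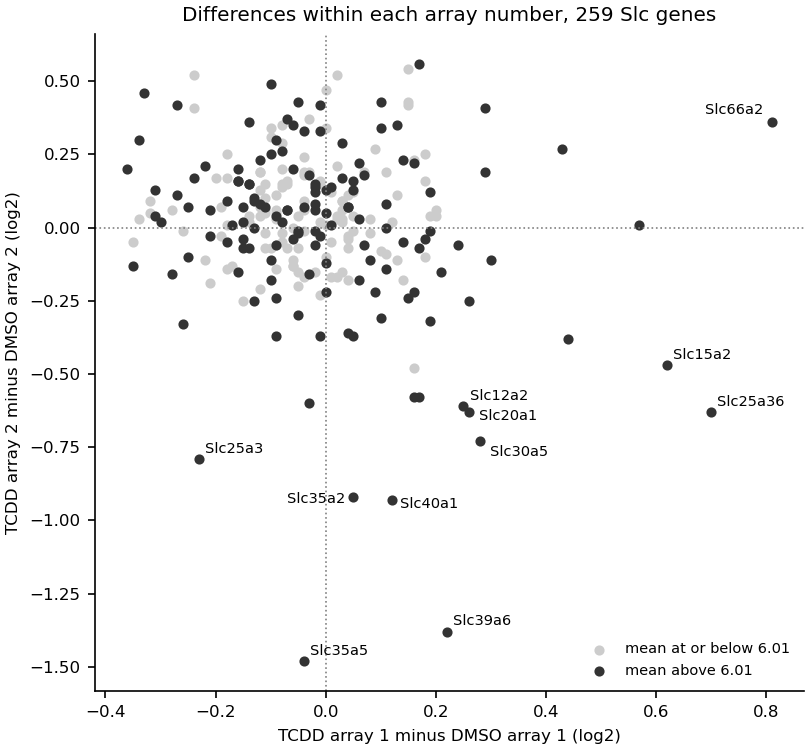
TCDD minus DMSO (log2) between the arrays numbered 2 against that between the arrays numbered 1, 1 point per Slc gene, dark where the mean is above 6.01; genes more than 0.6 from 0 on either axis are labelled, and the axes have different scales. The vertical axis reaches −1.48 at Slc35a5 and −1.38 at Slc39a6, and only Slc66a2 and Slc25a3 among the labelled genes beside Slc35a5 keep 1 sign on both axes.

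Carriers of nucleosides and nucleotide sugars, the latter feeding glycosylation in the Golgi, gave 1 gene higher (4.35%, against 12.9% of all genes) and 6 lower (26.1%, against 12.0%) of 23, with a median of −0.045. Slc35a5 showed the widest spread of all 259, at 6.07 and 6.96 with TCDD and 6.11 and 8.44 with DMSO. On both arrays 2 it read above both arrays 1, by 1.61 on average. Its treatment difference of −0.76 (95% limits −2.89 to 1.37) rests on DMSO array 2 and becomes 0.41 without it. Of its 4 other probe sets, 1 faint probe set stood at −0.48 and the rest between −0.06 and 0.09. The UDP-galactose carrier Slc35a2 read 8.85 and 8.53 with TCDD and 8.80 and 9.45 with DMSO, a difference of −0.44, and only −0.11 without DMSO array 2. Its other probe sets stood at −0.12, −0.06 and 0.17, the last 2 faint. Without overlap, TCDD was lower on the probe set at −0.06 and higher on that at 0.17.
Slc35a1, which carries CMP-sialic acid, read 6.40 and 6.38 against 6.45 and 6.68, and Slc35b1, a nucleotide carrier of the endoplasmic reticulum, 7.52 and 7.48 against 7.68 and 7.63. Both were lower with TCDD without overlap, by −0.18 and −0.16. The nucleoside transporter Slc29a1 was the only carrier of this group higher without overlap, at 6.45 and 6.65 against 6.42 and 6.36.

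The 21 carriers of vitamins, fatty acids, choline and haem split evenly, with 3 higher (14.3%, against 12.9% of all genes) and 3 lower (14.3%, against 12.0%). Slc23a2, the vitamin C importer, read 7.02 and 7.07 with TCDD and 7.11 and 7.31 with DMSO, and the choline transporter Slc44a1 6.44 and 6.59 against 6.69 on both. On a second probe set of Slc44a1 the arrays overlapped, at 0.005. Its relative Slc44a2 had the brightest probe set of the 259 and read 11.28 and 10.98 against 11.43 and 10.91. Slc48a1, a haem transporter, differed by 0.13 without overlap, and the folate carrier Slc19a1 by 0.06 and the fatty acid transporter Slc27a1 by 0.15, both with overlap. The lysosomal carrier Slc46a3, known as a dioxin-responsive gene of mouse liver, read 6.41 and 6.33 with TCDD and 6.54 and 6.33 with DMSO, a difference of −0.07 (95% limits −0.39 to 0.26).

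Vesicular and lysosomal carriers, 8 genes of which 1 had a mean above 6.01, gave 1 higher (12.5%, against 12.9% of all genes) and 1 lower (12.5%, against 12.0%). The vesicular nucleotide transporter Slc17a9, which loads ATP into vesicles, differed by 0.06. The urea transporters Slc14a1 and Slc14a2 differed by −0.11 and 0.16 with overlap, and Slc14a1 was lower on both arrays 2, by −0.49. A second, faint probe set of Slc14a1 differed by only 0.035 between the numbers and was lower with TCDD by −0.255 without overlap. ATP-binding cassette transporters, pumps outside the solute carriers, had 24 of 27 listed genes measured and 0 past the test. Without overlap, 3 were higher (12.5%, against 12.9% of all genes) and 5 lower (20.8%, against 12.0%). Abce1, a ribosome recycling factor of that family, read 6.98 and 6.37 against 7.13 and 7.55, and the lipid pump Abca3 differed by 0.33.

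Markers of the labelled cell type were present on every array, Cd8a at 8.17 and 8.74 with TCDD and 8.91 and 9.46 with DMSO, Cd8b1 at 8.16 to 8.95 and Cd3e at 9.15 to 9.77. Of 12 T cell identity genes 4 were lower with TCDD without overlap (33.3%, against 12.0% of all genes) and 0 higher (against 12.9%), and 0 passed the test. The mean of 14 B cell markers was 6.93 to 7.38 on the 4 arrays, and 8 of the 14 had a mean above 6.01. Ighm read 10.41 to 11.03, H2-Aa 9.51 to 11.30 and Cd22 7.11 to 7.39, while Cd79a, Ms4a1 and Pax5 were at or below 5.83. Of 10 markers of red cell precursors, 4 had a mean above 6.01. The haemoglobin gene Hba-a1 and Alas2 were at or below 5.98, while Epor read 7.34 to 7.56 and Car2 6.93 to 7.11.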

How the data were processed

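The deposited table holds log2 expression values that the authors made with RMA, per the submitters' processing notes, which name no version. In its usual form RMA removes background, brings the arrays to 1 distribution and combines a probe set's probes. Values ran from 3.09 to 14.62, a range of log2 values, and the array medians were 5.97 to 6.03. Of the probe sets, 64 controls were left out and 22626 were tested. In the platform annotation 20380 had 1 gene symbol, 691 several and 1555 none. Probe sets with several symbols gave no gene, including 3 with an Slc symbol. No symbol of the 259 genes needed updating through RefSeq's gene table.

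TCDD minus DMSO was fitted by lmFit and eBayes of limma 3.58.1 (R 4.3.3) without covariate or filter. P-values were adjusted over all probe sets by Benjamini-Hochberg, with a threshold of 0.05. The fit was checked on simulated data. The number of arrays limits the precision. Groups and lists are described by counts and medians beside all genes, with no test of a list. The text names up to 12 genes per direction by the test and then by size among genes with a mean above 6.01 whose arrays do not overlap, the 10 brightest, the 2 largest differences per substrate group, listed T cell and dioxin-related transporters and the 6 that varied most with array number, 62 in all, and at most 2 genes with a mean above 6.01 per other list by size of the treatment difference. Further amino acid response genes, the single marker genes and Slc15a2, labelled in a plot, were picked after their values were seen. The genes and lists were chosen with earlier results of these data known.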

Additional observations from a re-analysis of the deposited data

How the results depend on the processing

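With 2 arrays a group, leaving out 1 leaves a lone array that is assumed to vary like the other group. No probe set and none of the 259 genes passed the adjusted threshold under any alternative run. The carriers at an unadjusted p under 0.05 in limma numbered 1 higher and 2 lower in the analysis reported. Higher carriers numbered 2 with each array centred on its median, 2 for gene means over their probe sets, 4 with a variance trend and robust fit and 0 with probe sets under the median level left out. Lower carriers numbered 1 with the lowest 25% of probe sets left out, 1 without probe sets marked for possible cross hybridisation, and 0 with the variance trend or with the median filter. That filter left 12 carriers higher and 18 lower without overlap, since it keeps fewer genes. With 1 array left out, 0 to 5 were higher and 0 to 5 lower at the unadjusted threshold, 59 to 109 higher and 66 to 111 lower without overlap, and the median difference was −0.045 to 0.02. A lone array against 2 separates more genes by construction.

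The array numbers pair the arrays only by number. Deviations of same-numbered arrays correlated at 0.234 over all probe sets and 0.226 over the carriers. With the replicate block, 3 carriers were higher and 0 lower at the unadjusted threshold, and 52 were higher and 55 lower within both numbers, against 22.6% and 20.2% of all genes.

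Of the 62 named carriers, 26 changed sign with an array left out, over these log2 differences: Slc11a2 (−0.24 to 0.09), Slc12a2 (−0.425 to 0.065), Slc12a7 (−0.075 to 0.135), Slc14a1 (−0.45 to 0.24), Slc16a3 (−0.075 to 0.025), Slc17a9 (−0.035 to 0.145), Slc19a1 (−0.045 to 0.155), Slc20a1 (−0.72 to 0.35), Slc20a2 (−0.045 to 0.035), Slc25a36 (−0.395 to 0.465), Slc25a37 (−0.465 to 0.045), Slc27a1 (−0.06 to 0.35), Slc30a5 (−0.585 to 0.135), Slc35a5 (−1.925 to 0.405), Slc38a1 (−0.27 to 0.05), Slc38a2 (−0.43 to 1.13), Slc3a2 (−0.415 to 0.785), Slc40a1 (−1.195 to 0.385), Slc44a2 (−0.3 to 0.22), Slc46a3 (−0.17 to 0.04), Slc4a2 (−0.185 to 0.115), Slc6a6 (−0.115 to 0.205), Slc7a1 (−0.105 to 0.175), Slc7a11 (−0.085 to 0.105), Slc7a5 (−0.165 to 0.135), Slc7a6 (−0.01 to 0.19). A further quantile normalisation turned Slc20a2 to 0.01 and Slc7a5 to 0.0106. The mean of the probe sets turned Slc25a36 to −0.1275, and without marked probe sets Slc25a36 stood at −0.29, Slc35a5 at 0.09 and Slc6a6 at −0.03. The causes were not tested. Few arrays and faint probe sets limit what could be detected.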
